A study of Arabidopsis thaliana with 40 samples.

Results

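Transcript levels of AMY1 (AT4G25000), a gene for an alpha-amylase, and of QQS (AT3G30720), a gene linked to leaf starch content, were followed over all 16 groups of a microarray study of Arabidopsis thaliana leaves. They are 2 of the 13513 probe sets that name a single gene, among 22746 probe sets tested, and each has 1 such probe set (254101_at for AMY1, 256940_at for QQS). Both were picked from earlier results of the same arrays, AMY1 for its difference between aox1a and wild type under stress and for its interaction, QQS for its difference between untreated rpoTmp and wild type. Those contrasts, and the others that share arrays with them, are therefore given as values with no test.

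The 40 arrays form 3 sets, each made of a mutant and the wild-type (WT, Col0) plants that the labels name as its control. The first set holds aox1a, mutant in the main leaf gene for the alternative oxidase of mitochondria. The second holds rpoTmp, mutant in a gene for an RNA polymerase of mitochondria and plastids, and the third holds the double mutant aox1a:rpoTmp. Each single mutant is represented by 2 lines with 2 arrays per line and treatment, and the double mutant and every wild type by 3 arrays per treatment. The alleles are not given in the sources used here, and nothing in the labels says that the arrays of a group come from separate plants, so p-values measure the spread between these arrays, which may be technical. Plants either stayed at 100 µE light with watering (untreated) or spent 4 d at about 350 µE light on dry soil (moderate light and drought, MLD), so light and drought cannot be told apart. Plant age is given differently by the labels. The treatment protocol has 4 weeks for aox1a and wild type, 5 weeks for rpoTmp and 6 to 7 weeks for the double mutant. The sample characteristics have 4 weeks for aox1a and all wild type except the untreated wild type of the double mutant set (5 weeks), 5 weeks for rpoTmp, and for the double mutant 5 weeks untreated and 4 weeks under MLD. Age and genotype cannot be told apart in the rpoTmp set on either of these labels and, by the protocol, in the double mutant set. Another age label, part of the source name, puts all 40 arrays at 4 weeks. On that label age differs within none of the sets, and which label is right is not known. By the sample characteristics, both untreated groups of the double mutant set had 5 weeks and both stressed groups 4 weeks. On those labels age and treatment cannot be told apart there, which holds for every MLD step of that set below.

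Leaves store part of the carbon fixed by day as starch in chloroplasts and break it down at night, mainly through glucan phosphorylation and beta-amylases. Alpha-amylases cut the inner bonds of glucan chains, and AMY1 is the secreted form of Arabidopsis, not the chloroplast one, known for induction in stressed and senescing leaves. QQS encodes a small protein of an orphan gene found in Arabidopsis thaliana alone, and lowering it is known to raise leaf starch.

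The values are intensities deposited on a linear scale, given here as log2 intensity. AMY1 ranged from 2.50 to 9.08 over the 40 arrays (mean 4.56) and QQS from 3.32 to 9.45 (mean 7.14). The lower quartile of all probe sets lay between 2.47 and 2.61 on the arrays, so AMY1 levels near 3 are close to the low end of the scale, where a fall is hard to follow and the size of a rise is not exact. Array medians lay between 23.5 and 27.2 on the linear scale. The leaf mesophyll markers measured, RCA (13.91 to 14.61) and LHCB4.1 (12.54 to 14.01), were high on every array. LHCB4.1 was called lower with MLD in aox1a (-0.98 ± 0.10, SE; limma, adjusted p = 8.55e-05) and in rpoTmp (-0.97 ± 0.10, SE; adjusted p = 5.52e-05), the mutants in which stressed AMY1 was highest. Its step in the double mutant was -0.17 ± 0.09 (SE; adjusted p = 0.224). RCA went the other way within aox1a, where it was called higher with MLD (0.12 ± 0.04, SE; limma, adjusted p = 0.0305). It was also called higher in stressed aox1a than in wild type (0.19, adjusted p = 0.0223). Its MLD step was 0.12 in rpoTmp (adjusted p = 0.221) and -0.05 in the double mutant (adjusted p = 0.6), neither called. RCA differences ranged from -0.18 to 0.30 over the comparisons within sets, and the part of these markers in the AMY1 and starch gene differences was not tested. In the aox1a set, 1 untreated wild-type array (replicate 2) stood apart: on the first principal component, which held 71.9% of the variance, it scored 19.5, among the MLD wild type (6.57 to 31.1) and away from the other untreated arrays (-92.9 to -44.4). Differences that it moves by over 1.5 times are also given without it.

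In the aox1a set AMY1 was highest in stressed mutants and lowest in untreated ones. The untreated wild type had log2 intensities of 4.01, 6.30 and 4.63, and the wild type under MLD 5.21, 5.96 and 6.36. Untreated aox1a had 2.85 and 3.47 in line 1 and 3.22 and 3.69 in line 2. Under MLD the mutant had 8.92 and 9.00 in line 1 and 7.98 and 8.10 in line 2. Every stressed mutant array therefore lay above every other array of the set, every untreated mutant array lay below every wild-type array, and the 2 wild-type arms overlapped. In group means the mutant was at 3.31 ± 0.36 (SD, n = 4) untreated and at 8.50 ± 0.53 (SD, n = 4) under MLD, a difference of 5.19 ± 0.46 (standard error of the fit, SE), or 36.6-fold. In the wild type the same step was 0.86 ± 0.53 (SE), from 4.98 ± 1.19 (SD, n = 3) to 5.84 ± 0.59 (SD, n = 3). Mutant minus wild type was -1.67 ± 0.50 (SE) untreated and 2.65 ± 0.50 (SE) under MLD, and the response of the mutant exceeded that of the wild type by 4.33 ± 0.71 (SE). The last 2 values chose the gene and none of these carries a test. Of all probe sets, 52% were called at a Benjamini-Hochberg adjusted p under 0.05 for the MLD step within aox1a, 3.35% for that in wild type, 6.85% for aox1a against wild type in untreated leaves, 12.4% for the same in stressed leaves, and 22.4% for the interaction. Without the untreated wild-type array that stood apart, the wild-type step was 1.52, mutant minus wild type untreated was -1.01 and the interaction was 3.67. Without replicate 1 of the untreated wild type the wild-type step was 0.38. The untreated wild type of this set (4.01 to 6.30) lay above those of the rpoTmp set (2.81 to 3.22) and the double mutant set (2.50 to 2.85). Untreated aox1a (2.85 to 3.69) overlapped the untreated wild type of the rpoTmp set. Set, and whatever differed between the sets, cannot be told apart from these differences between wild types. In whole leaves, fewer cells of a type and less RNA per cell cannot be told apart, here or in the results that follow.

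In the rpoTmp set, which did not choose AMY1, the gene rose with MLD in the mutant, and the spread between stressed mutant arrays was wide. Its level in untreated wild type was 2.81, 3.20 and 3.22, and in wild type under MLD 4.24, 5.78 and 5.18. Untreated rpoTmp had 3.67 and 3.19 in line 1 and 2.72 and 2.85 in line 2. Stressed rpoTmp had 7.26 and 4.69 in line 1 and 9.08 and 6.66 in line 2. The untreated arms overlapped, and of the 4 stressed mutant arrays 3 lay above all wild-type arrays and 1, replicate 2 of line 1, among the stressed wild type. The MLD step within the mutant was 3.82 ± 0.64 (SE), or 14.1-fold, with an adjusted p of 0.0012 (limma, Benjamini-Hochberg), in a comparison that called 34.7% of all probe sets and 18% as higher. Leaving out 1 array at a time gave 3.17 to 4.46, but with line 1 alone the step was 2.55 and the call was lost (adjusted p = 0.0651). In the wild type the step was 1.99 ± 0.74 (SE). Its arms did not overlap, but the adjusted p of limma was 0.192, and 3.61% of all probe sets were called.

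Mutant minus wild type under MLD was 1.86 ± 0.69 (SE) for AMY1 in the rpoTmp set and did not pass the test (limma, adjusted p = 0.0739, 30% of probe sets called). This outcome turned on single arrays. Without replicate 2 of stressed line 1 the difference was 2.50 (adjusted p = 0.0152), without replicate 2 of stressed line 2 it was 2.47 (adjusted p = 0.0189), and in a fit of all 40 arrays the same 1.86 was called (adjusted p = 0.00717). By line it was 0.91 with line 1 alone (adjusted p = 0.487) and 2.80 with line 2 alone (adjusted p = 0.0245). Untreated, mutant and wild type were 0.03 ± 0.69 (SE) apart (1.55% of probe sets called), and the interaction of 1.82 ± 0.98 (SE) was not called (limma, adjusted p = 0.289, 14.9% called), at 0.56 with line 1 alone and 3.09 with line 2 alone, neither of them called. The log2 ratio of the 3′ to the 5′ control probe sets of GAPDH is a sign of RNA integrity. It was 3.03 to 3.22 in untreated and 3.45 to 3.89 in stressed rpoTmp, without overlap. Another GAPDH pair of control probe sets gave -0.47 to 0.11 and 0.15 to 0.41, also without overlap. The part of either ratio in the AMY1 step was not tested.

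In the aox1a:rpoTmp set AMY1 rose with MLD in the wild type and was low on every double mutant array, stressed or not. The untreated wild type had 2.77, 2.85 and 2.50, and the stressed wild type 4.97, 4.12 and 3.95. The double mutant had 2.57, 3.01 and 2.90 untreated and 2.85, 2.68 and 3.04 under MLD. All 3 stressed wild-type arrays lay above the other 9 arrays of the set, and those 9 overlapped one another. The wild-type step was 1.64 ± 0.25 (SE), or 3.11-fold (limma, adjusted p = 0.000406), where 42.5% of all probe sets were called and 18.3% were higher. Within the double mutant it was 0.03 ± 0.25 (SE), with a limma adjusted p of 0.958 (22% called). Under MLD the double mutant lay below its wild type by a log2 difference of -1.49 ± 0.25 (SE), or 2.81-fold, and this was called (limma, adjusted p = 0.00102; 35.9% of all probe sets called, 17.1% as lower). Untreated, the difference was 0.12 ± 0.25 (SE) with a limma adjusted p of 0.808 (19.7% called).

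The response of AMY1 to MLD was smaller in the double mutant than in its wild type by a log2 difference of -1.61 ± 0.35 (SE), called within the set (limma, adjusted p = 0.00559; 32.6% of probe sets called, 15.9% as lower) but not in the fit of all 40 arrays (adjusted p = 0.146). With log2 of the value plus 16 the wild-type step was 0.70, the stressed difference -0.66 and the interaction -0.70, all still called. The spread behind these tests differed between the sets: the pooled SD of AMY1 was 0.69 in the aox1a set, 0.98 in the rpoTmp set and 0.32 in the double mutant set. The GAPDH ratio was 3.49 to 3.66 in the untreated and 3.88 to 4.103 in the stressed wild type, without overlap. In the stressed double mutant it was 3.06 to 3.57, without overlap with the stressed wild type. On the other GAPDH pair the ranges were 0.33 to 0.42, 0.40 to 0.65 and 0.30 to 0.61 in the same order. These overlapped between the wild-type treatments and between the stressed genotypes. The part of either ratio in these differences was not tested.

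**Figure D1:**
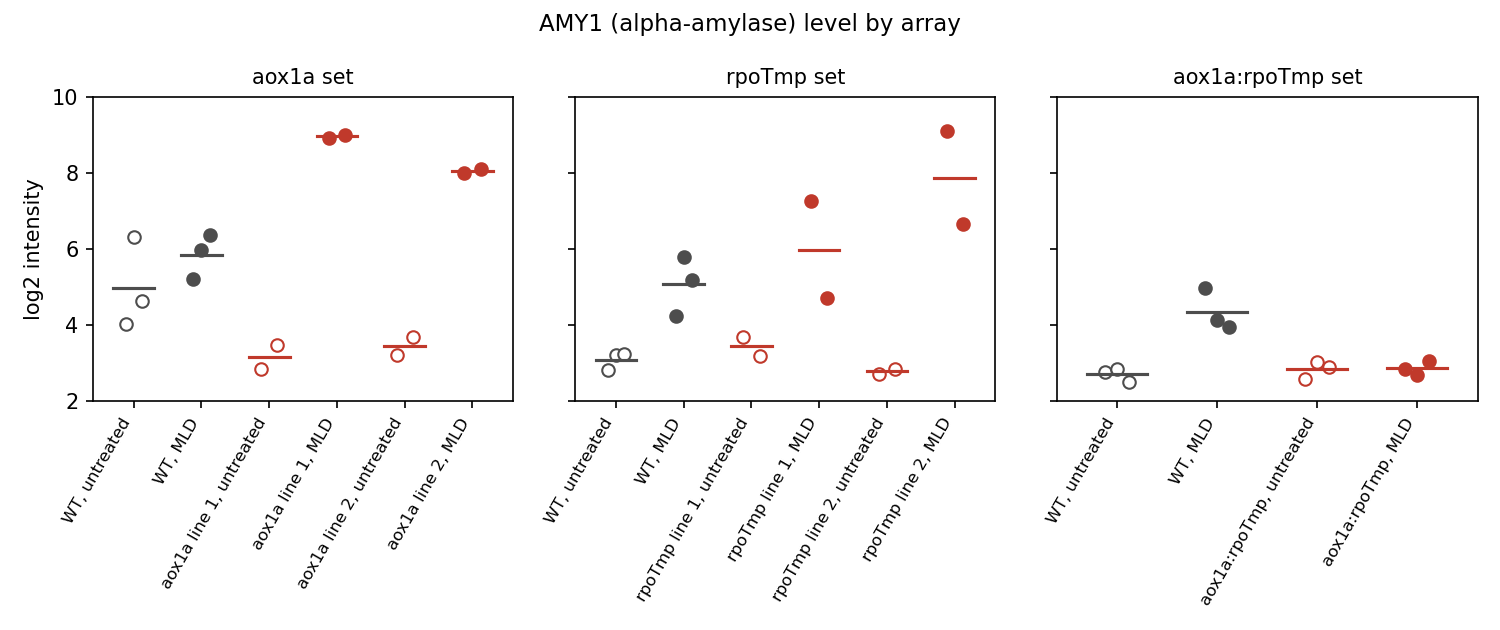
AMY1 log2 intensity on each of the 40 arrays, by group and set, with open points for untreated and filled points for MLD, grey for wild type and red for mutants, and a line at each group mean. The stressed aox1a arrays sit between 7.98 and 9.00, and no double mutant array exceeds 3.04.

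Set against its own wild type, AMY1 under MLD differed in the double mutant from its difference in rpoTmp. The double mutant effect minus the rpoTmp effect was -3.35 ± 0.78 (SE) in the fit of all 40 arrays (limma, adjusted p = 0.000893; 41.9% of probe sets called, 21.4% as lower). Against the aox1a effect the difference was -4.14 ± 0.78 (SE), given with no test because the aox1a arrays chose the gene (33% called). Untreated, the double mutant effect lay 0.09 ± 0.78 (SE) from that of rpoTmp (limma, adjusted p = 0.978, 9.47% called) and 1.80 ± 0.78 (SE) above that of aox1a, the latter with no test (23.8% called). The wild-type MLD step of the double mutant set was -0.35 ± 0.81 (SE) from that of the rpoTmp set (limma, adjusted p = 0.831, 26.1% called). It was 0.78 ± 0.81 (SE) above that of the aox1a set (25.3% called), and the step of the rpoTmp set was 1.13 ± 0.81 (SE) above that of the aox1a set (0.809% called), both with no test. Without the array of the aox1a set that stood apart, the AMY1 differences from aox1a were 1.13 for the untreated effect, 0.11 for the step of the double mutant set and 0.47 for that of the rpoTmp set. Over the 13 comparisons with a test, AMY1 was called in 5, 2 of them higher and 3 lower.

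Ordered by group mean, the 4 stressed single mutant groups came first for AMY1: aox1a line 1 at 8.96, aox1a line 2 at 8.04, rpoTmp line 2 at 7.87 and rpoTmp line 1 at 5.98. The stressed wild types followed at 5.84 (aox1a set), 5.07 (rpoTmp set) and 4.35 (double mutant set), with the untreated wild type of the aox1a set at 4.98 between the last 2 of them. The other 8 groups lay between 2.71 and 3.45, both double mutant groups among them. Of the 15 pairs of neighbours in this order, 13 overlapped in their arrays. The 2 that did not were aox1a line 1 over line 2 under MLD, and the stressed wild type of the double mutant set over untreated aox1a line 2. The lines of rpoTmp also differed without overlap when untreated, at means of 3.43 and 2.79.

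QQS had a different layout: in the aox1a set none of its 5 comparisons was called by limma, and 0 had an unadjusted p under 0.05. The untreated wild type there had log2 intensities of 7.61, 8.54 and 6.95, and the stressed wild type 6.69, 8.28 and 7.21. Untreated aox1a had 6.96 and 7.63 in line 1 and 6.94 and 6.71 in line 2, and stressed aox1a had 7.93 and 7.00 in line 1 and 5.92 and 7.18 in line 2. All 4 arms overlapped. The MLD step was -0.31 ± 0.55 (SE) in the wild type (limma, adjusted p = 0.886) and -0.05 ± 0.48 (SE) in the mutant (adjusted p = 0.934). Mutant minus wild type was -0.64 ± 0.52 (SE) untreated (adjusted p = 0.417) and -0.39 ± 0.52 (SE) under MLD (adjusted p = 0.719). The interaction was 0.25 ± 0.73 (SE), with an adjusted p of 0.833. Without the untreated wild-type array that stood apart, the wild-type step was 0.11, mutant minus wild type untreated -0.22 and the interaction -0.17, none of them called. For comparison, 3.35%, 52%, 6.85%, 12.4% and 22.4% of all probe sets were called in these 5 comparisons in that order. Lines 1 and 2 of untreated aox1a did not overlap, at means of 7.30 and 6.83.

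In the rpoTmp set QQS was higher in the mutant than in wild type at both treatments. The untreated wild type had 4.71, 3.32 and 4.43, the lowest 3 of the 40 arrays, and the stressed wild type 6.77, 5.99 and 6.51. Untreated rpoTmp had 7.14 and 7.41 in line 1 and 7.62 and 8.55 in line 2, and stressed rpoTmp had 8.35 and 8.59 in line 1 and 7.39 and 8.53 in line 2. No mutant array overlapped a wild-type array. The untreated difference, which chose the gene, was 3.53 ± 0.40 (SE), or 11.5-fold, in a comparison that called 1.55% of all probe sets. Under MLD, on arrays that did not choose it, QQS was higher in the mutant by 1.79 ± 0.40 (SE), or 3.47-fold (limma, adjusted p = 0.00743; 15.7% of all probe sets were called higher). The SE is pooled over the set, so the untreated arrays that chose the gene enter it and the p-value. With line 2 alone this difference was 1.54 and not called (adjusted p = 0.0816). The MLD step was 2.27 ± 0.43 (SE) in wild type, whose arms did not overlap, and 0.53 ± 0.37 (SE) in the mutant, whose arms did. The mutant step minus the wild-type step was -1.73 ± 0.57 (SE). These 3 values share arrays with the contrast that chose the gene and carry no test. By line, the mutant step was 1.20 in line 1 and -0.13 in line 2.

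In the aox1a:rpoTmp set QQS was higher in the double mutant than in wild type at both treatments and rose further with MLD. The wild type had 5.84, 6.09 and 5.51 untreated and 5.90, 6.51 and 7.01 under MLD, and these arms overlapped. The double mutant had 8.03, 8.19 and 7.96 untreated and 9.28, 9.13 and 9.45 under MLD. Its treatments did not overlap. Double mutant minus wild type was 2.25 ± 0.25 (SE), or 4.74-fold, untreated (limma, adjusted p = 0.000336), where 19.7% of all probe sets were called and 10.1% were higher. Under MLD it was 2.81 ± 0.25 (SE), or 7.02-fold (limma, adjusted p = 2.82e-05), where 35.9% were called and 18.8% were higher. Every double mutant array lay above every wild-type array of the set. The MLD step within the double mutant was 1.23 ± 0.25 (SE), or 2.34-fold (limma, adjusted p = 0.00655; 10.2% called higher), and was just lost in the fit of all 40 arrays (adjusted p = 0.0513).

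The wild-type MLD step of QQS in the double mutant set was 0.66 ± 0.25 (SE) and did not pass the test (limma, adjusted p = 0.0591, 42.5% of probe sets called). It did so without replicate 1 of the stressed wild type (0.95, adjusted p = 0.0048) and without replicate 2 of the untreated wild type (0.80, adjusted p = 0.0479). The interaction of 0.57 ± 0.35 (SE) was not called (adjusted p = 0.291). The GAPDH ratio was 3.49 to 3.66 in the untreated wild type and 3.13 to 3.25 in the untreated double mutant, without overlap. On the other GAPDH pair these groups overlapped, at 0.33 to 0.42 and 0.39 to 0.42. The part of either ratio in the QQS differences was not tested.

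**Figure D2:**
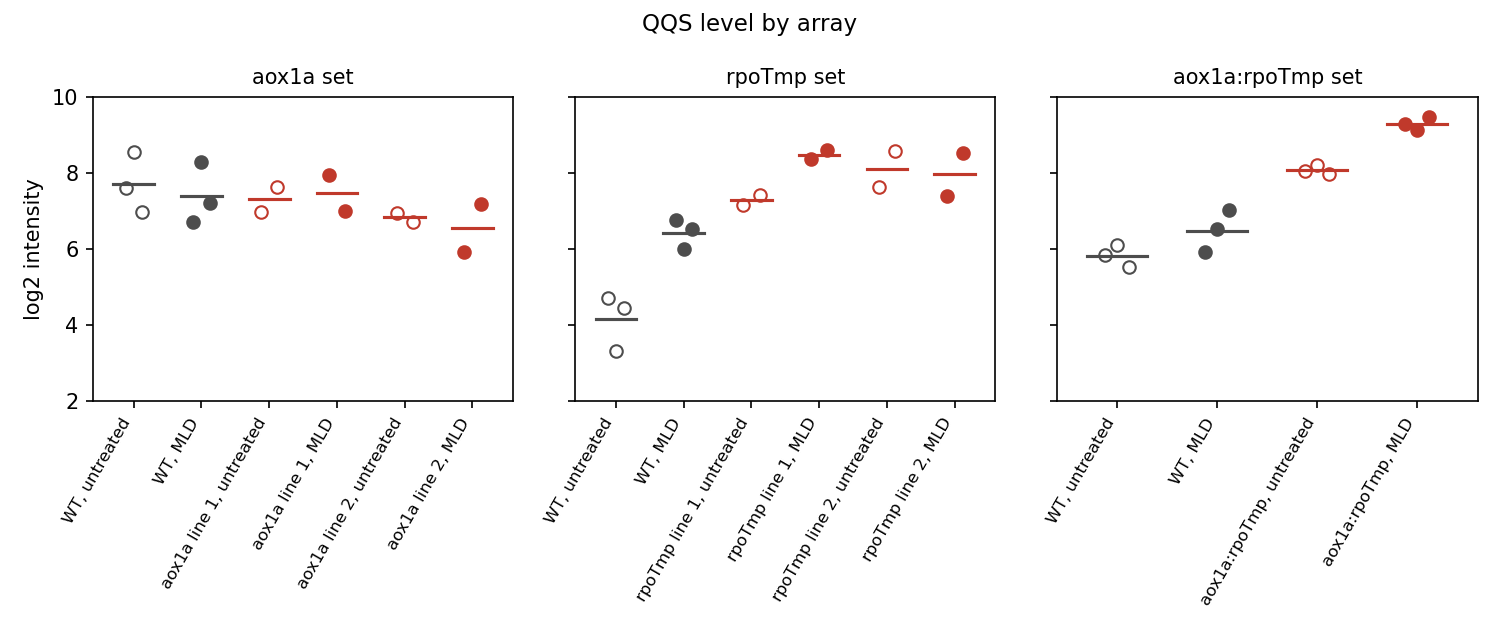
QQS log2 intensity on each of the 40 arrays, by group and set, with open points for untreated and filled points for MLD, grey for wild type and red for mutants, and a line at each group mean. The untreated wild types of the 3 sets sit at different heights, with means of 7.70, 4.15 and 5.81.

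The untreated wild types of the 3 sets, which carry the same genotype and treatment in the labels, did not overlap in QQS. Their means were 7.70 ± 0.80 in the aox1a set, 5.81 ± 0.29 in the double mutant set and 4.15 ± 0.74 in the rpoTmp set (SD, n = 3 each). The untreated rpoTmp mutant, at 7.14 to 8.55, overlapped the untreated wild type of the aox1a set, at 6.95 to 8.54, while it stood clear of the wild type of its own set. Under MLD the wild types were closer, at 7.39 ± 0.81, 6.47 ± 0.55 and 6.42 ± 0.40 (SD, n = 3 each) in the same order of sets. Set, and whatever differed between the sets, cannot be told apart from these differences between wild types.

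Taken against the wild type of its own set, the QQS difference of the double mutant was larger than that of aox1a at both treatments. It exceeded the aox1a effect by 2.89 ± 0.61 (SE) untreated (limma, adjusted p = 0.000994; 12.2% of all probe sets called higher) and by 3.20 ± 0.61 (SE) under MLD (adjusted p = 0.00018; 16.7% called higher). Against rpoTmp the difference of effects was 1.02 ± 0.61 (SE) under MLD, which was not called (adjusted p = 0.198), and -1.28 ± 0.61 (SE) untreated, with no test. The wild-type step of the double mutant set was 0.97 ± 0.63 (SE) above that of the aox1a set (limma, adjusted p = 0.318), and 0.55 without the aox1a-set array that stood apart (adjusted p = 0.676). It was -1.60 ± 0.63 (SE) from that of the rpoTmp set, and the step of the rpoTmp set was 2.57 ± 0.63 (SE) above that of the aox1a set, both with no test. Over the 15 comparisons with a test QQS was called in 6, all of them higher.

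**Figure D3:**
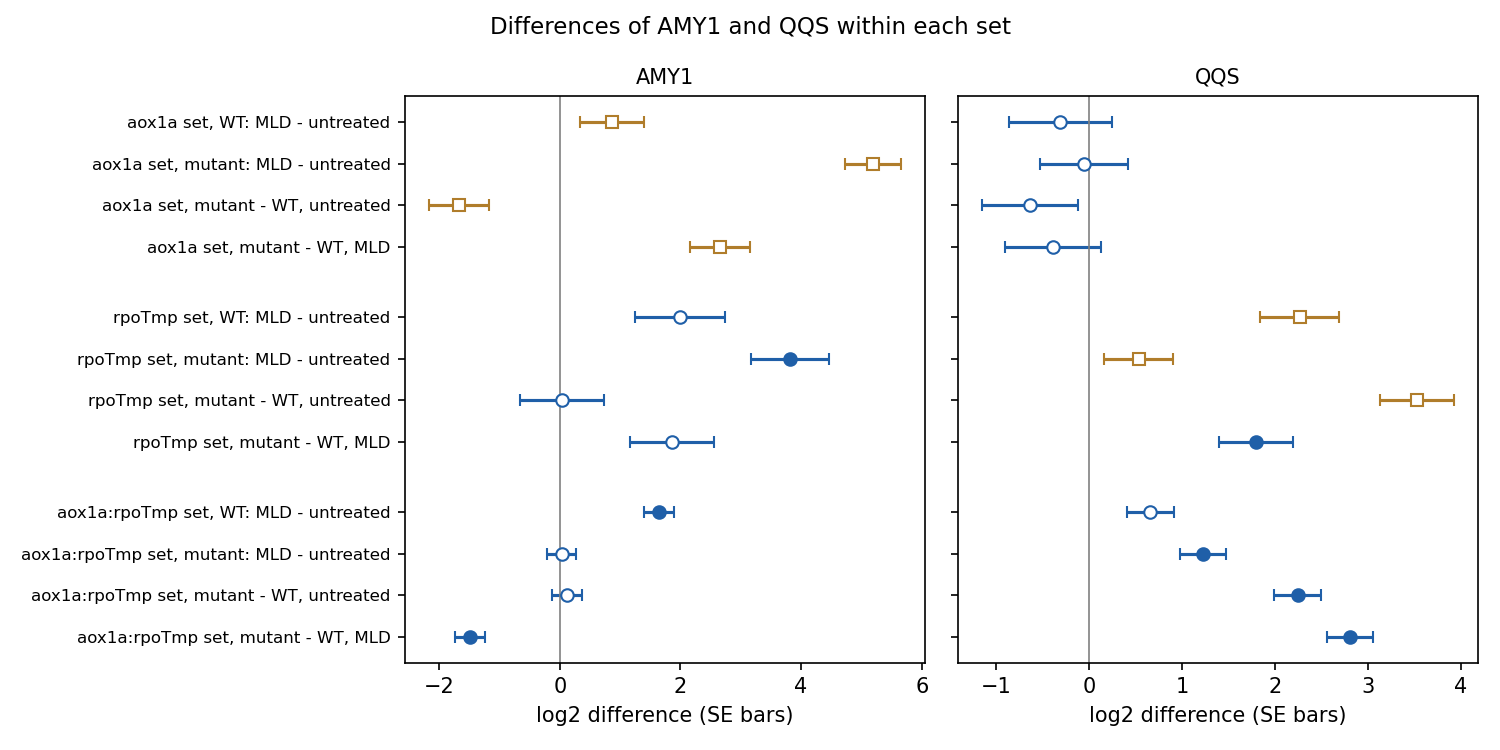
Log2 differences of AMY1 and QQS with SE bars for 4 comparisons in each of the 3 sets. Filled circles passed the test, open circles did not, and squares are values that share arrays with the contrasts that chose the gene and carry no test. For AMY1 the last row, double mutant against wild type under MLD, lies at -1.49, and for QQS it lies at 2.81.

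In the order of group means QQS was highest in the stressed double mutant (9.29), followed by stressed rpoTmp line 1 (8.47), untreated rpoTmp line 2 (8.09), the untreated double mutant (8.06) and stressed rpoTmp line 2 (7.96). The 6 groups of the aox1a set lay between 6.55 and 7.70 with untreated rpoTmp line 1 (7.28) among them. The wild types of the other sets came last, at 6.47 and 6.42 under MLD and at 5.81 and 4.15 untreated. Of 15 pairs of neighbours 12 overlapped in their arrays. The stressed double mutant stood clear of the next group, and untreated rpoTmp line 1 stood clear of untreated aox1a line 2 below it. Both untreated wild types at the foot stood clear of each other.

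AMY1 and QQS did not share a layout. Over the 16 group means Pearson's r between them was 0.11, and 0.16 after each set was centred, as a description of groups that share sets. The stressed double mutant had the highest QQS mean of all groups (9.29) and an AMY1 mean of 2.86, whereas stressed aox1a line 1 had the highest AMY1 mean (8.96) and a QQS mean of 7.46. Stressed rpoTmp was high in both, with means of 5.98 and 7.87 for AMY1 and 8.47 and 7.96 for QQS in lines 1 and 2.

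**Figure D4:**
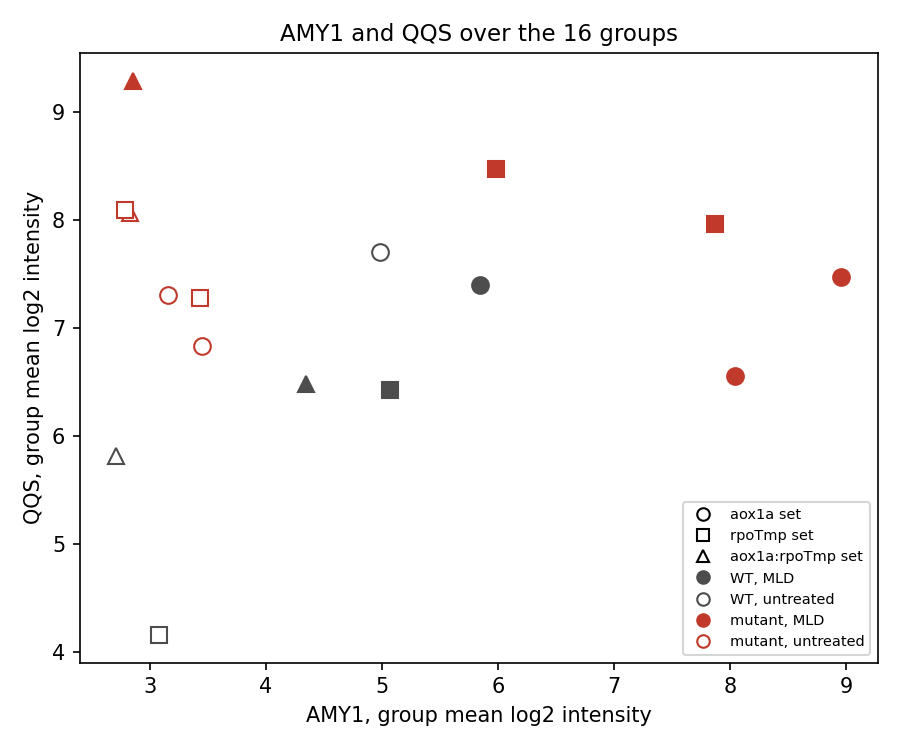
Group means of QQS against group means of AMY1, both in log2 intensity, for the 16 groups, with a symbol per set, filled for MLD, grey for wild type and red for mutants. The points form no line (r = 0.11); the stressed double mutant lies at the upper left, at 2.86 for AMY1 and 9.29 for QQS.

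Of 45 listed genes of starch breakdown and synthesis, 8 had a single-gene probe set, AMY1 and 7 others, so the list stands for those 7 alone. In breakdown they are AT4G24450 (GWD2, a glucan water dikinase outside the plastid, which the gene table gives the symbol PWD and the synonym ATGWD2), PWD (AT5G26570, phosphoglucan water dikinase) and DPE1 (a plastid enzyme that rearranges short glucans). In synthesis they are APL3 and APL4 (large subunits of ADP-glucose pyrophosphorylase, which makes the substrate of starch synthesis), SBE2.2 (a starch branching enzyme) and AT5G39790. None of the listed binding partners of QQS, and none of the listed sugar starvation and senescence genes, had such a probe set. On the 40 arrays GWD2 ranged from 3.35 to 9.99, APL3 from 4.75 to 10.10 and APL4 from 2.49 to 6.96, while PWD (9.72 to 11.37), DPE1 (9.04 to 10.33), SBE2.2 (7.59 to 9.70) and AT5G39790 (5.62 to 7.70) varied less.

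In both single mutants, the double mutant and 1 of the 3 wild types, at least 4 of the 7 genes rose with MLD. Within aox1a 6 of the 7 rose and none fell (24.8% of all probe sets called higher), with a median difference of 1.01 against -0.02 over all probe sets. GWD2 rose by 3.32 ± 0.34 (SE; limma, adjusted p = 0.000108), from 6.14 to 9.46, and APL4 by 2.49 ± 0.37 (SE). With line 1 alone APL4 had 1.34 and was not called (adjusted p = 0.103). The rise of DPE1 there (0.33 ± 0.11, SE) was lost under 6 of 22 alternatives run. Within rpoTmp 4 rose and 1 fell (18% called higher and 16.7% lower; median 0.94 against -0.01). GWD2 rose by 3.15 ± 0.36 (SE; limma, adjusted p = 0.000115) and APL3 by 2.25 ± 0.25 (SE), while DPE1 fell by 0.57 (SE 0.10). Both GAPDH ratios moved without overlap along this step of rpoTmp, and their part was not tested. In the wild type of the double mutant set 6 rose and none fell (18.3% called higher; median 1.06 against -0.04), with GWD2 rising by 4.83 ± 0.27 (SE; limma, adjusted p = 1.32e-06) from 3.51 to 8.34 and APL3 by 3.20 ± 0.32 (SE). As given for AMY1, 1 GAPDH ratio moved without overlap along this step while the other overlapped. The part of either was not tested. The APL4 call here (1.31 ± 0.38, SE) was lost without replicate 1 of the untreated (adjusted p = 0.0518) or of the stressed wild type (adjusted p = 0.0536). In the double mutant 5 rose and none fell (10.2% called higher; median 0.67 against -0.03), led by AT5G39790 at 1.46 ± 0.15 (SE) and APL3 at 1.10 ± 0.32 (SE). The call of APL3 there (adjusted p = 0.0369) was lost under 8 of 18 alternatives, and that of PWD within rpoTmp (0.30 ± 0.10, SE; adjusted p = 0.0427) under 16 of 22.

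In the wild types of the other 2 sets fewer passed the test: APL3 alone of 7 in the aox1a set (1.31 ± 0.29, SE; 2.08% of probe sets called higher), and GWD2 (1.96 ± 0.41, SE), APL3 (1.99 ± 0.29, SE) and SBE2.2 (0.68 ± 0.14, SE) in the rpoTmp set (1.62% called higher). The APL3 call in the aox1a set was lost under 15 of 20 alternatives, among them leaving out any single array of the set but replicate 2 of the untreated wild type. In the rpoTmp set the GWD2 call was lost under 7 of 20 and the SBE2.2 call under 6, and 1 gene of the 7 was left without replicate 1 or 2 of the stressed or any replicate of the untreated wild type. In GWD2 and APL3 the wild types differed more untreated than under MLD. GWD2 means in the aox1a, rpoTmp and double mutant sets were 7.47, 5.77 and 3.51 untreated and 8.28, 7.73 and 8.34 under MLD. APL3 had 7.60, 6.58 and 5.15 untreated and 8.91, 8.57 and 8.35 under MLD. SBE2.2 was lowest untreated in the rpoTmp set (8.64, 8.24 and 8.62). The larger GWD2 and APL3 steps of the double mutant set cannot be told apart from differences between the sets.

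Between genotypes, the double mutant under MLD had lower levels of 4 of the 7 genes and higher levels of none (17.1% of all probe sets called lower; median -0.79 against -0.02). These were GWD2 at -3.07 ± 0.27 (SE; limma, adjusted p = 2.74e-05), APL3 at -1.70 ± 0.32 (SE), SBE2.2 at -0.79 ± 0.06 (SE) and PWD at -0.36 ± 0.09 (SE), as AMY1 was at -1.49. As given for AMY1 and QQS, the GAPDH ratio did not overlap between double mutant and wild type at either treatment, while that of the other pair did. The part of either ratio in the starch gene differences was not tested. GWD2 rose with MLD from 3.51 to 8.34 in the wild type but had 4.77 and 5.27 in the double mutant. The responses of GWD2 (-4.32 ± 0.38, SE), APL3 (-2.09 ± 0.46, SE) and PWD (-0.38 ± 0.12, SE) were smaller in the double mutant than in wild type and that of AT5G39790 larger (1.76 ± 0.21, SE), with 15.9% of all probe sets called lower and 16.8% higher. The PWD call was lost under 11 of 18 alternatives. Untreated, GWD2 was higher in the double mutant (1.26 ± 0.27, SE), a call lost with log2 of the value plus 16 (0.66, adjusted p = 0.0764), and AT5G39790 (-1.61 ± 0.15, SE), SBE2.2 (-0.96 ± 0.06, SE) and DPE1 (-0.39 ± 0.09, SE) were lower (10.1% of all probe sets called higher and 9.61% lower).

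In rpoTmp under MLD 3 of the 7 were higher and 2 lower than in wild type (15.7% of probe sets called higher and 14.3% lower): GWD2 by 1.89 ± 0.38 (SE), APL3 by 1.02 ± 0.27 (SE) and SBE2.2 by 0.43 ± 0.13 (SE), against AT5G39790 at -1.15 ± 0.20 (SE) and DPE1 at -0.94 ± 0.11 (SE). Without replicate 1 of stressed line 1, or replicate 2 or 3 of the stressed wild type, 3 of these 5 calls were left, those of APL3 and SBE2.2 being lost. The calls of APL3 and SBE2.2 were each lost under 5 of 22 alternatives. Among these were line 2 alone for APL3 (limma, adjusted p = 0.123) and line 1 alone for SBE2.2 (adjusted p = 0.091). None of the 7 was called in untreated rpoTmp (limma; 2 with an unadjusted p under 0.05; 1.55% of probe sets called), the comparison that chose QQS. In aox1a none was called under MLD (limma; 2 with an unadjusted p under 0.05 and 1 called without the untreated wild-type array that stood apart; 12.4% of probe sets called), and untreated PWD alone was (-0.59 ± 0.14, SE; 3.57% called lower), a call lost under 15 of 22 alternatives. GWD2 (2.51 ± 0.52, SE) and PWD (0.81 ± 0.20, SE) had larger MLD responses in aox1a than in wild type (12.5% called higher), calls lost under 1 and 4 of 22 alternatives, that of GWD2 with line 2 alone (adjusted p = 0.108). SWEET11, a sucrose exporter of the phloem and the 1 measured member of 8 listed sucrose genes, was at 10.77 to 13.11 on all arrays. It was called lower in the stressed double mutant than in wild type (-0.71 ± 0.15, SE; limma, adjusted p = 0.00421; 17.1% of probe sets called lower). It was higher in the untreated double mutant (0.65 ± 0.15, SE; adjusted p = 0.0138; 10.1% higher) and in stressed rpoTmp (0.69 ± 0.19, SE; adjusted p = 0.0205; 15.7% higher). With MLD it rose in the wild type of the double mutant set (1.20, adjusted p = 0.000123; 18.3% higher), in aox1a (0.71, adjusted p = 0.0346; 24.8%) and in rpoTmp (0.80, adjusted p = 0.0053; 18%). The double mutant step was -0.17 and not called, and the interaction was -1.36 (adjusted p = 0.000872; 15.9% lower).

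**Figure D5:**
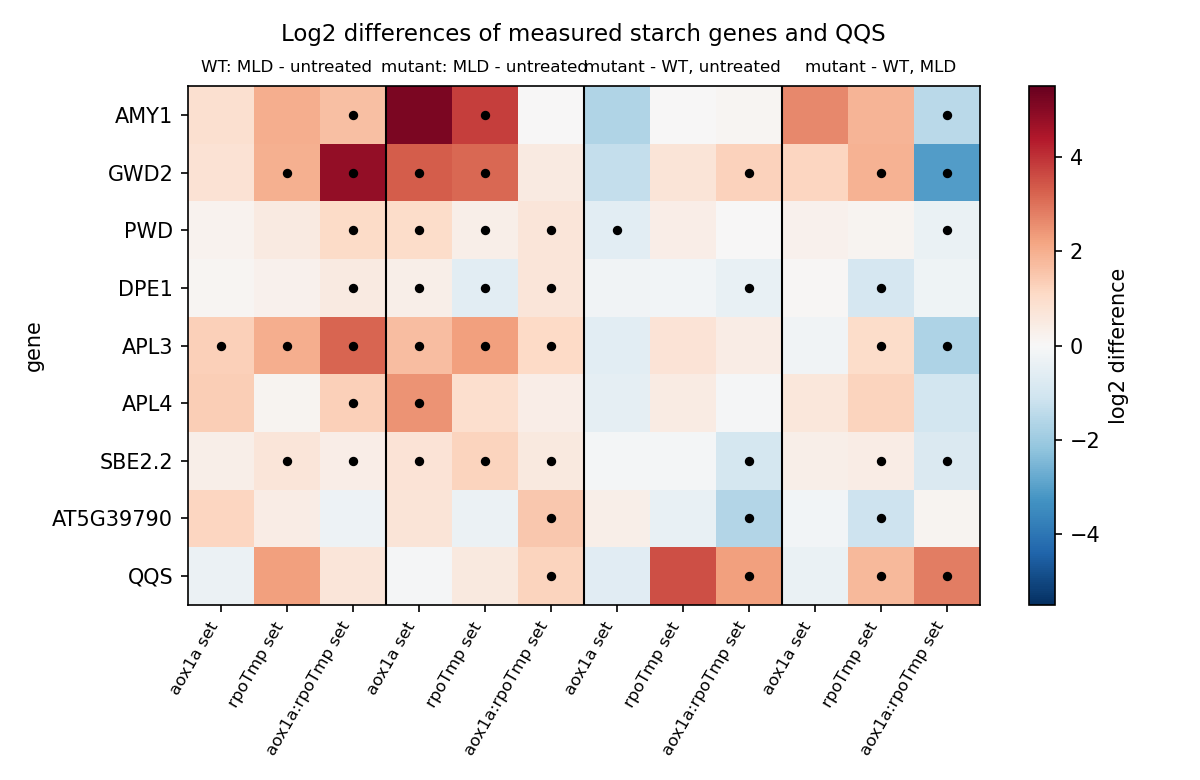
Log2 differences of AMY1, the 7 other measured starch genes and QQS in 12 comparisons, as a colour scale from blue (lower) to red (higher), with a dot where the gene was called. AMY1 in the aox1a set and QQS in 3 of the 4 columns of the rpoTmp set have no dot because no test is given there. The last column, double mutant against wild type under MLD, is blue for GWD2 (-3.07) and APL3 (-1.70) and red for QQS (2.81).

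Among 6953 other single-gene probe sets with a group mean of at least 5, those most like AMY1 in their 16 group means were AT5G54870, AT1G16210, AT4G39955, scpl48 (a serine carboxypeptidase-like gene) and UBC32 (a ubiquitin-conjugating enzyme gene), each with r = 0.96. After each set was centred r was 0.96 for AT5G54870 and 0.95 for the others. The gene scpl48 had means of 8.28 and 10.91 in untreated and stressed aox1a, 8.09 and 9.83 in rpoTmp, and 7.46 and 7.88 in the double mutant. UBC32 had 7.25 and 9.20, 7.45 and 8.78, and 7.75 and 7.06 in the same order.

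The genes most like QQS matched it less closely: AT1G06890 (r = 0.77, and 0.81 after centring), AT5G23330 (0.77 and 0.84), AT2G07751 (0.72 and 0.83), AT5G43450 (0.71 and 0.71) and AT5G09570 (0.69 and 0.85). AT5G09570 had means of 2.83 and 7.39 in untreated wild type and mutant of the rpoTmp set, 2.93 and 10.03 in the double mutant set, and 2.95 and 3.19 in the aox1a set. AT5G43450 had 5.94 and 7.52, 4.67 and 11.20, and 8.41 and 7.74 in the same order. These correlations are descriptions over group means that share sets and treatments.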

How the data were processed

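Leaf RNA of 40 samples was hybridised to Affymetrix 3′ expression arrays after standard biotin labelling, per the labels' protocols. The deposited table gives a linear intensity for each of 22810 probe sets. The submitters' processing notes name Affymetrix Expression Console, MAS5, Partek 6.5 and GCRMA with no roles or order. No source used here says whether the 3 sets were hybridised or normalised as one. AMY1 and QQS, and the gene lists, were chosen with earlier results of these data known.

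The design had assumed values already on a log2 scale. The deposited ones were linear, so log2 was taken of each with no pseudocount (lowest 2.66), and 64 control probe sets were left out, leaving 22746. Of these, 13513 name 1 gene, 503 several and 8730 none, and 13436 matched the TAIR10.1 gene table, used for names only. No 2 arrays held identical values.

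Each set was fitted with limma 3.58.1 (lmFit and eBayes) in R 4.3.3 with 1 coefficient per group, lines weighted equally. Every SE pools the spread of all groups in its fit, arrays that chose the gene included where the fit holds them. Of 22 comparisons, 15 lie within sets and 7 compare sets in a fit of all 40 arrays. Probe sets were called at a Benjamini-Hochberg adjusted p under 0.05 over all 22746. The share called is the background for each count. Starch, sucrose, starvation and cell type genes were named as any measured member by its level, with up to 4 called each way per comparison, and the 5 probe sets closest to each gene by Pearson's r were named too. Of the marker lists, 2 of 7 leaf mesophyll, 1 of 4 guard cell (FAMA, 5.35 to 6.79), 0 of 5 floral and 0 of 3 dividing cell genes were measured. The fit was tested on simulated data. Alternatives were other normalisation, pseudocount, filter, prior, single lines, 1 fit of all arrays, a replicate block and leaving out each array. The number of arrays limits the precision. The replicate numbers were checked for pairing, a check that could not settle whether samples were paired.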

Additional observations from a re-analysis of the deposited data

Results flagged for a closer look

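AMY1 responded to MLD differently in the double mutant and in its wild type, by -1.61 on the log2 scale, an interaction that passed the test within its set. The AMY1 difference from wild type under MLD was lower in the double mutant than in rpoTmp by a log2 value of -3.35, also called. QQS differed from wild type by more in the double mutant than in aox1a, by 2.89 untreated and by 3.20 under MLD, both called.

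AMY1 under MLD lay above wild type in all 4 aox1a arrays (2.65) and below it in all 3 double mutant arrays (-1.49), a contrast in direction that was not tested because the aox1a arrays chose the gene. Within the aox1a set, mutant minus wild type for AMY1 was -1.67 untreated and 2.65 under MLD, with no overlap of arrays in either, and this opposition was not tested for the same reason. Its untreated part was -1.01 without the wild-type array that stood apart. That part is taken against a wild type (mean 4.98) that lay above the untreated wild types of the other sets (3.08 and 2.71), while untreated aox1a was at 3.31.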

How the results depend on the processing

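Every sensitivity value is a log2 difference, and called means a limma adjusted p under 0.05. With log2 of the value plus 16, AMY1 in the aox1a set gave -0.94 for mutant minus wild type untreated, 3.86 for the mutant step and 3.29 for the interaction, and -3.01 for the double mutant effect minus the aox1a effect under MLD. QQS gave 1.56 for the wild-type step in the rpoTmp set, 2.69 for mutant minus wild type untreated, -1.06 for the interaction and 1.84 for the wild-type step of the rpoTmp set minus that of the aox1a set. AMY1 steps of wild type fell to 1.05 (rpoTmp set) and 0.70 (double mutant set), its double mutant effect minus the rpoTmp effect under MLD was -2.20, and no call of AMY1 changed. By construction such a pseudocount shrinks differences at low levels. In a fit of all 40 arrays, AMY1 in the rpoTmp set gained calls for the wild-type step (1.99, adjusted p = 0.0326) and for mutant minus wild type under MLD (1.86), while the AMY1 interaction (-1.61) and the QQS step of the double mutant (1.23) lost theirs. With line 1 alone, AMY1 had 2.55 for the rpoTmp step, no longer called, and -0.24 for the untreated double mutant effect minus the rpoTmp effect. QQS had 0.070 for aox1a minus wild type under MLD, 0.17 for the aox1a step, 1.20 for the rpoTmp step and -1.07 for the rpoTmp interaction. With line 2 alone, AMY1 had -0.29 for untreated rpoTmp minus wild type and 2.80 for the same under MLD, now called (adjusted p = 0.0245), against 0.91 with line 1 alone. QQS had 1.54 for rpoTmp minus wild type under MLD, no longer called, -0.13 for the rpoTmp step and -2.40 for its interaction. The QQS wild-type step of the double mutant set (0.66) was called with a trended, robust prior (adjusted p = 0.0458) and with a filter at a mean log2 of 5 (adjusted p = 0.0263). That filter removed AMY1 from the rpoTmp, double mutant and all-array fits. The cause of these changes was not tested.

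Besides the calls of starch genes it lost, leaving out 1 array at a time turned the direction or changed the call of 10 results of AMY1 and QQS, whose ranges follow. For AMY1 they were -0.10 to 0.15 (untreated rpoTmp minus wild type), 1.22 to 2.50 (the same under MLD), -0.10 to 0.12 (double mutant step), -0.032 to 0.22 (double mutant effect minus rpoTmp effect, untreated) and -0.77 to 0.0046 (wild-type step, double mutant set minus rpoTmp set). For QQS they were -0.75 to 0.11 (wild-type step), -0.74 to 0.059 (mutant minus wild type under MLD), -0.37 to 0.26 (mutant step) and -0.17 to 0.70 (interaction) in the aox1a set, and 0.39 to 0.95 (wild-type step, double mutant set). The share of all probe sets called moved too, from 3.35% to 13.7% for the wild-type step of the aox1a set without replicate 2 of its untreated wild type and to 0.448% without replicate 3 of the stressed wild type. For AMY1 and QQS a replicate block kept the direction of all 44 results and the side of the threshold of the 28 with a test (AMY1 step in rpoTmp 3.82, adjusted p = 0.00356). Starch gene calls lost with the block include APL3 in the wild-type step of the aox1a set (limma, adjusted p = 0.103). They also include PWD in the rpoTmp step (adjusted p = 0.0679) and APL3 in the double mutant step (adjusted p = 0.0536). The labels give replicate numbers but state no pairing. In the aox1a, rpoTmp and double mutant sets r of same-numbered deviations exceeded 0.1 in 10 of 31, 6 of 31 and 1 of 18 pairs. It ranged from -0.37 to 0.53 in the aox1a set, highest between replicates 1 of its stressed and untreated wild type. Between groups of 2 arrays both replicates give the same r, so these counts cannot settle whether arrays were paired. The block lowered the calls from 763 to 333 (aox1a set, wild-type step), 2819 to 1768 (aox1a under MLD), 820 to 453 (rpoTmp set, wild-type step) and 353 to 96 (untreated rpoTmp).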
